A study of Mus musculus with 6 samples.

Results

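The genes that copy DNA in S phase and those that divide the chromosomes in mitosis were compared between Ly6C+ and Ly6C- fibroblasts of a mouse mammary tumour. A list of 60 such genes was matched by symbol to the deposited table of 12235 genes, which gave 53 members, 19 for DNA replication and 34 for mitosis. The other 7 listed genes, Tyms, Dut, Cdc6, Ccne2, Stmn1, Cdk1 and Cenpf, were not analysed here. Both groups came from tumours grown in 8-week-old female BALB/c mice after injection of 100000 4T1 cells, a mammary carcinoma line, into the lower left mammary fat pad. The labels call the injected line 4T1-GFP in one field and 4T1-luc in another, and no field names any other allele or agent. Cancer-associated fibroblasts were sorted as podoplanin-positive cells negative for Ter119, CD45, EpCAM and propidium iodide, and anti-Ly6C split them into Ly6C+ and Ly6C- cells. Each group has 3 libraries of mRNA 3′ ends, called repetitions in the labels. The labels do not say whether these came from separate mice or pools, so p-values measure only the spread between these libraries, which may be technical.

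A cell commits to division when G1 cyclins and their kinases inactivate the RB family and free the E2F factors, which switch on genes for DNA replication. The MCM helicase is loaded at replication origins by CDT1 and unwinds the DNA. Primase and polymerase alpha then start each strand, RFC loads the PCNA clamp, FEN1 and LIG1 finish the lagging strand, and ribonucleotide reductase supplies the nucleotides. Later, the MuvB complex with B-MYB and FOXM1 switches on mitotic genes through the CHR promoter element, often with CCAAT boxes bound by NF-Y. Their products condense the chromosomes, build the spindle, hold anaphase until kinetochores are attached, and split the cell. In a tumour, fibroblasts can divide, but tumour cells, pericytes and immune cells can carry the same transcripts.

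The promoters are shown because both programmes are known by their promoter elements. RefSeq promoters (build GRCm38.p6, 250 bases before to 50 after the annotated start) were matched by symbol for 17 of the 19 replication and 29 of the 34 mitotic members. A mitotic trio and a replication pair are printed in the direction of the gene. They have the smallest p of their list in the test described below, among members with a single promoter entry. Capitals mark the CHR element (TTTGAA or TTCGAA) and CCAAT in the mitotic promoters, and an E2F motif (TTCCCGC, the form TTGGCGC, the form TTCGCGC or the form TTGCCGC) and CCAAT in the replication promoters, on either strand, so that CCAAT can read ATTGG. CENP-A, the centromere's histone H3 variant, is encoded by Cenpa, with its promoter at chr5:30666636-30666935 on the plus strand. Plk1 encodes polo-like kinase (chr7:122159185-122159484, plus strand). Kif23 encodes a kinesin of the central spindle (chr9:61946750-61947049, minus strand). Rrm1 encodes the large subunit of ribonucleotide reductase (chr7:102441445-102441744, plus strand). Mcm5 encodes a subunit of the MCM helicase (chr8:75109259-75109558, plus strand).
Cenpa: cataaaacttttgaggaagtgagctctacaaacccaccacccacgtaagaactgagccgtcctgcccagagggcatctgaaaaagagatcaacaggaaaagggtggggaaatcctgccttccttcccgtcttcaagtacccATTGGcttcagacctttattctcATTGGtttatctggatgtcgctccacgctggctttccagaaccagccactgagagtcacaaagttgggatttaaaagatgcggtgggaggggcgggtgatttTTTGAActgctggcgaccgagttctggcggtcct
Plk1: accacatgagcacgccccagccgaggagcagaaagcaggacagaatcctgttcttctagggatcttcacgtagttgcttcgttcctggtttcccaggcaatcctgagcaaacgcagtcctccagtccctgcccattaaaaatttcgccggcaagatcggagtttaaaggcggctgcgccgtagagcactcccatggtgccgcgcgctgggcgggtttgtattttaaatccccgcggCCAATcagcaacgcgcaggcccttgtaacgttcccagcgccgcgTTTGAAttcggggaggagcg
Kif23: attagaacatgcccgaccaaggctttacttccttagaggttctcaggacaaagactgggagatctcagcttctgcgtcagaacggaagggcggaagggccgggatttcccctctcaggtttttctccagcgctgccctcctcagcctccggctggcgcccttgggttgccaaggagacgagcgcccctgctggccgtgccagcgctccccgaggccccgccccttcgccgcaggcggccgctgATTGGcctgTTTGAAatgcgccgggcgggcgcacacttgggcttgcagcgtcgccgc
Rrm1: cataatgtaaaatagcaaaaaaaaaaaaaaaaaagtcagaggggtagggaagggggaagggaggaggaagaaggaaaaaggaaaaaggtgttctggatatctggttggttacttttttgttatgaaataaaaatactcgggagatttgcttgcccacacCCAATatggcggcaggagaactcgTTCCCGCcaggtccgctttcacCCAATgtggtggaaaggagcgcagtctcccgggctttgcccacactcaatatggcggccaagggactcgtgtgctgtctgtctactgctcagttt
Mcm5: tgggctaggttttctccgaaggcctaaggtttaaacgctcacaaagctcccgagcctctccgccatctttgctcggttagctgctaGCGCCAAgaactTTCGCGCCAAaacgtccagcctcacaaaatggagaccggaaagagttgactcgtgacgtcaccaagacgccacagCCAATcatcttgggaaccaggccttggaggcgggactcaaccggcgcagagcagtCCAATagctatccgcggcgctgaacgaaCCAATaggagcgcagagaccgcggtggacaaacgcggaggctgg

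In the mitotic trio the CHR element began 2 bases after the start in Kif23, 16 bases after it in Cenpa and 30 bases after it in Plk1. A CHR element was present in 20 of 29 mitotic promoters (69.0%) and in 4 of 17 replication promoters (23.5%). The share was 13.3% among the 9673 genes of the table with a promoter entry and 19.4% among all 27025 entries. CCAAT stood in 24 mitotic (82.8%) and 11 replication promoters (64.7%), against 38.1% of the table's genes and 37.9% of all entries. An E2F motif stood in 11 replication promoters (64.7%) and 4 mitotic ones (13.8%), against 16.9% and 9.69%. Both CHR and CCAAT were found in 20 mitotic promoters (69.0%) and 3 replication promoters (17.6%), against 5.56% of the table's genes and 7.70% of all entries. TTGGCGC reads GCGCCAA on the other strand and can share bases with CCAAT. These are matches of letters in a short window around 1 start per gene, and no binding was measured.

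The libraries held 2150531 to 2818269 reads on the table's genes in Ly6C+ and 1176909 to 1721480 in Ly6C-, so depth did not overlap between the groups. Values below are the deposited normalised counts. Differences are log2(value + 1) in Ly6C+ minus Ly6C-, tested with limma over the 9646 genes with a mean of at least 5 and Benjamini-Hochberg adjusted (adjusted p under 0.05). Ly6c1, a gene of the sorted antigen, was at 3849, 3142 and 2316 in Ly6C+ replicates 1 to 3 against 88.6, 77.4 and 65.6 in those of Ly6C-. Pdpn stood at 181.2 to 223.3 in Ly6C+ and at 66.9 to 142.7 in Ly6C-. Epcam was at most 2.95 and Ptprc, which encodes CD45, at most 4.88 in any library. The summed level of 9 fibroblast genes, most of it from Col1a2, was 38998 to 45702 in Ly6C+ and 34086 to 41227 in Ly6C-. Of the 9, Pdpn, Pdgfra, Dcn and Lum were higher in Ly6C+ by 2.19-fold, 2.38-fold, 3.99-fold and 5.24-fold, Pdgfrb was 2.398-fold higher in Ly6C-, and Col1a1, Col1a2, Thy1 and Fap did not pass the test.

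Of 31 tested mitotic genes, 10 were lower in Ly6C+ than in Ly6C- fibroblasts, none was higher, and 21 did not pass the test. The 10 are Cenpa, Kif20a, Plk1, Kif23, Aurka, Tacc3, Racgap1, Ccnb2, Tubb5 and Cdc20, with Ly6C- levels 1.44-fold to 3.08-fold those of Ly6C+. An unadjusted p under 0.05 was found for 18 (58.1%), against 28.5% of all tested genes. The share called lower (32.3%) stands beside 7.66% of all tested genes called lower, 9.41% called higher and 17.1% called in either direction. The number lower was 3 without Ly6C+ replicate 1 or without Ly6C- replicate 2, and 5 without Ly6C+ replicate 2. It was 10 or 11 without any other library. Without limma's mean-variance trend it was 5, and 610 of all tested genes were then lower, against 739 with the trend. The median difference was -0.62 (range -1.54 to 1.05), with 29 of 31 members negative, while the median of all tested genes was 0.00 with 50.1% negative. For 17 members all 3 Ly6C- values lay above all 3 Ly6C+ values, the case for 16.1% of all tested genes; no member showed the opposite, the case for 17.1%. In bulk libraries, fewer cycling cells, less RNA per cycling cell and a different mix of cell types cannot be told apart. Summed mural and epithelial markers, given below, were higher in every Ly6C- library than in any Ly6C+ library, while endothelial and immune sums overlapped. The part of those cells was not tested.

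The summed level of the 34 mitotic members was 3219, 4115 and 4574 in Ly6C+ against 5353, 5690 and 6241 in the Ly6C- libraries. Much of it came from the tubulins Tubb5 and Tuba1b, which serve the spindle and also every other microtubule, and without them the sums were 969, 1212 and 1321 against 1749.9, 1985 and 1906. The groups did not overlap on either sum, and without the tubulins 9 of 29 tested members were lower in Ly6C+, with a median of -0.73.

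**Figure D1:**
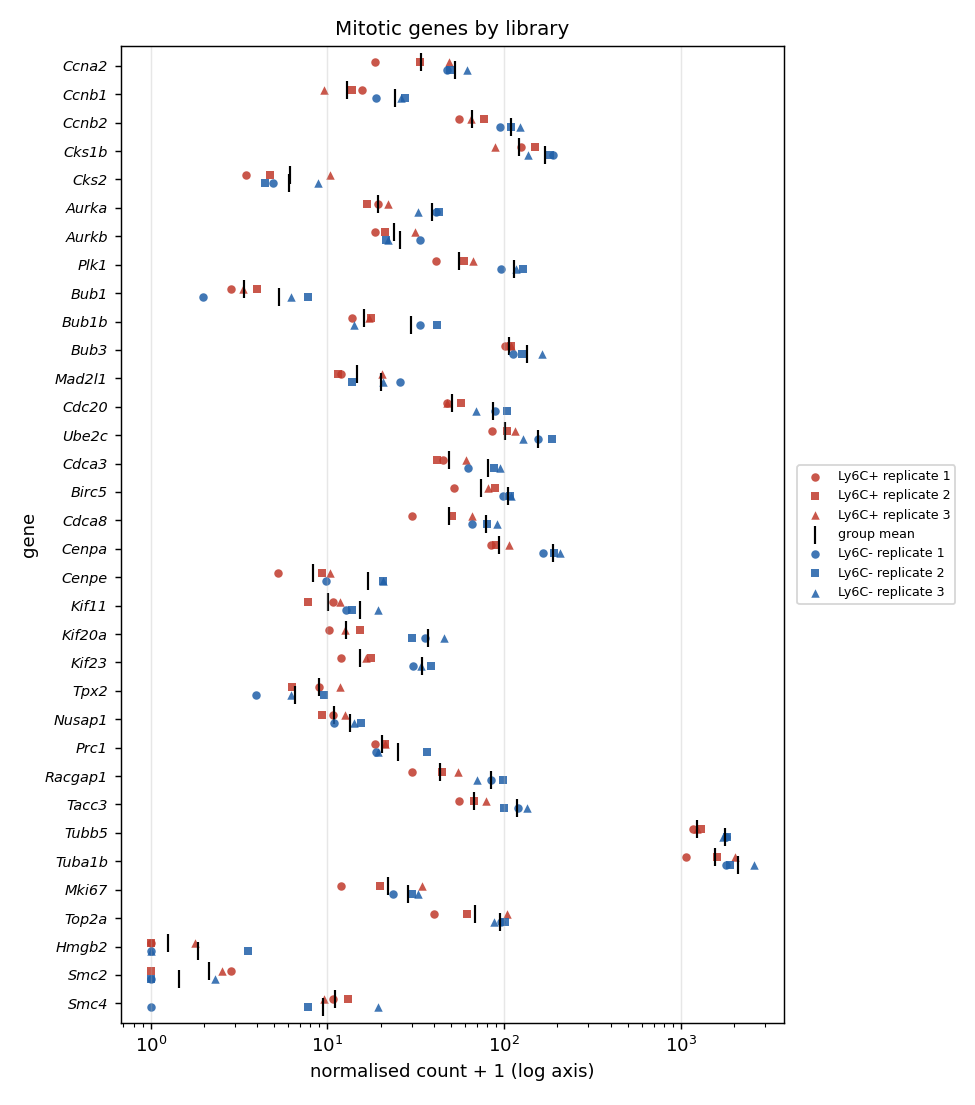
Deposited normalised count plus 1 (log axis) of the 34 mitotic members in each library, with symbols for the replicates, red for Ly6C+, blue for Ly6C- and black ticks for the group means. For each of the 10 genes past the test all Ly6C- symbols sit to the right of all Ly6C+ symbols, as for Kif20a (9.15 to 14.3 against 28.9 to 44.6) and Tubb5 (1176 to 1303 against 1737 to 1812).

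Among genes of the kinetochore and the chromosomal passenger complex, Cenpa (chr5:30666777-30674830, GENCODE M21) measured 83.6, 89.4 and 106 in Ly6C+ against 164, 189.7 and 207 in the Ly6C- libraries. The libraries of each group lay close together and apart from the other group. Its means were 93.0 ± 11.6 and 187 ± 21.5 (SD, n = 3), a 2.01-fold higher level in Ly6C- (log2 difference -1.002, SE 0.18, limma adjusted p = 0.00279), and it passed in all 20 alternative analyses. Birc5, encoding survivin of the passenger complex, read 51.2, 87.9 and 80.4 against 97.4, 106 and 109 (limma adjusted p = 0.14). Cdca8, encoding borealin of the same complex, read 29.3, 49.6 and 64.9 against 65.0, 79.1 and 90.5 (limma adjusted p = 0.102). All 4 tested members of this role were negative and 1 was past the test. The remaining one, Cenpe, a kinetochore kinesin, read 4.27, 8.27 and 9.27 against 8.86, 19.6 and 19.7, so a Ly6C- library lay within the Ly6C+ range.

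Of the mitotic kinases, Plk1 (chr7:122159439-122169873), which drives mitotic entry and spindle assembly, was at 40.3, 57.9 and 65.7 in Ly6C+ against 94.5, 128 and 115 in the Ly6C- libraries. The means were 54.6 ± 13.0 and 112 ± 16.7, a 2.06-fold difference (log2 -1.05, SE 0.23, limma adjusted p = 0.00865); without Ly6C- replicate 2 the adjusted p was 0.0516. Aurka, the centrosomal Aurora kinase, was at 18.3, 15.8 and 20.9 against 40.4, 41.7 and 31.5, with means of 18.3 ± 2.54 and 37.8 ± 5.56. This was 2.07-fold higher in Ly6C- (log2 -1.01, SE 0.25, limma adjusted p = 0.0172), and the call was lost without Ly6C+ replicate 1 (0.0544) or 2 (0.0737) and without Ly6C- replicate 2 (0.0868). Both kinases were separated between the groups. Aurkb, the kinase of the passenger complex, was not, at 17.7, 20.3 and 30.1 against 32.5, 20.4 and 21.0 (log2 -0.12, limma adjusted p = 0.854).

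The spindle and cytokinesis genes held 4 of the 10 calls. Kif20a (chr18:34624613-34633277), a kinesin of the central spindle, was at 9.15, 14.3 and 11.6 in Ly6C+ against 34.4, 28.9 and 44.6 in the Ly6C- libraries, from 49 and 103 reads in all. It had the largest ratio among the mitotic members past the test, 3.08-fold higher in Ly6C- (means 11.7 ± 2.57 and 36.0 ± 7.94, log2 -1.54, SE 0.29, limma adjusted p = 0.0035), and passed in all 20 alternatives. Kif23, which with the product of Racgap1 forms the centralspindlin complex, was at 10.98, 16.5 and 15.5 against 29.5, 37.4 and 32.8. The groups were apart for both genes of that complex. Kif23 was 2.32-fold higher in Ly6C- (means 14.3 ± 2.95 and 33.2 ± 3.97, log2 -1.17, SE 0.27, limma adjusted p = 0.0115), with 0.0501 without Ly6C+ replicate 1 and 0.0649 without Ly6C- replicate 2. Racgap1 was at 29.3, 43.6 and 54.1 against 82.7, 97.8 and 69.5 and 1.97-fold higher in Ly6C- (means 42.3 ± 12.5 and 83.3 ± 14.2, log2 -0.99, SE 0.26, limma adjusted p = 0.0205). That call was lost without Ly6C+ replicate 1 (0.0788) or 2 (0.052) and without Ly6C- replicate 2 (0.103). Tacc3, whose product steadies spindle microtubules, was at 54.3, 66.1 and 78.0 against 118, 98.7 and 134, 1.77-fold higher in Ly6C- (means 66.2 ± 11.9 and 117 ± 17.6, log2 -0.82, SE 0.21, limma adjusted p = 0.0194). It lost the call without Ly6C+ replicate 1 (0.0802) or 2 (0.0611) and without Ly6C- replicate 3 (0.0503).

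The other 4 spindle genes did not pass. Prc1, a microtubule bundler of the midzone, read 17.7, 20.3 and 20.1 against 17.7, 35.7 and 18.4, high in 1 Ly6C- library alone. Tpx2, an activator of Aurora A, read 7.93, 5.26 and 10.8 against 2.95, 8.51 and 5.24 (log2 0.50, limma adjusted p = 0.556), opposite in sign to the role's other members. Kif11, the motor that pushes spindle poles apart, and Nusap1, a microtubule-binding protein, gave -0.60 and -0.30 (limma adjusted p of 0.297 and 0.62). The Nusap1 groups overlapped, at 8.27 to 11.6 in Ly6C+ and 9.84 to 14.5 in Ly6C-.

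Among cyclins and the anaphase machinery, Ccnb2, a mitotic cyclin, was at 54.3, 75.9 and 64.1 in Ly6C+ against 93.5, 109 and 122 in the Ly6C- libraries, without overlap. It was 1.67-fold higher in Ly6C- (means 64.8 ± 10.8 and 108 ± 14.2, log2 -0.73, SE 0.20, limma adjusted p = 0.0287). The call was lost without Ly6C+ replicate 1 (0.108) or 3 (0.0659) and without Ly6C- replicate 2 (0.103) or 3 (0.0694). Cdc20, which activates the anaphase-promoting complex, was at 46.4, 55.6 and 46.4 against 87.6, 102 and 68.2, again without overlap. It was 1.74-fold higher in Ly6C- (means 49.4 ± 5.35 and 86.0 ± 17.0, log2 -0.77, SE 0.21, limma adjusted p = 0.0294), and the adjusted p was 0.0956, 0.0526 and 0.0794 without Ly6C+ replicates 1, 2 and 3, and 0.0643 and 0.149 without Ly6C- replicates 1 and 2. Ube2c, the ubiquitin-conjugating enzyme of that complex, and Cdca3, which promotes entry into mitosis, had groups that did not overlap and missed the threshold narrowly (limma adjusted p of 0.0602 and 0.0604). Ube2c read 84.2, 102 and 114 against 154, 185 and 127, and Cdca3 read 43.9, 40.6 and 59.5 against 61.0, 86.8 and 93.1. Ccnb1, the other B-type cyclin, read 14.6, 12.8 and 8.499 against 17.7, 26.4 and 24.9 (log2 -0.90, limma adjusted p = 0.0795). Ccna2, the cyclin of S phase and early mitosis, read 17.7, 32.3 and 47.9 against 46.3, 48.5 and 60.3, with 1 Ly6C+ library above the lowest Ly6C- library (log2 -0.75, SE 0.33, limma adjusted p = 0.159).

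The CDK-binding subunits and the spindle checkpoint did not pass. Cks1b was at 124, 148 and 88.1 against 189, 181 and 135 (means 119.99 ± 30.2 and 168 ± 29.2, log2 -0.50, SE 0.23, limma adjusted p = 0.171), and the groups overlapped. Cks2 was at 2.44, 3.76 and 9.27 against 3.94, 3.40 and 7.87, with an SD of 0.81 on the log2 scale in Ly6C+ (log2 difference -0.07, SE 0.55, limma adjusted p = 0.961). Bub1b, a checkpoint kinase that restrains the anaphase-promoting complex, was at 12.8, 16.5 and 16.2 against 32.5, 40.8 and 13.1. Ly6C- replicate 3 stood in the Ly6C+ range, apart from the other 2 Ly6C- libraries (log2 SD 0.83). Its difference was -0.75 (SE 0.39, limma adjusted p = 0.241), and the adjusted p was 0.0129 without that library. Bub3 and Mad2l1, of the same checkpoint, had differences of -0.31 and -0.46 (limma adjusted p of 0.322 and 0.448). Bub1, a checkpoint kinase gene below the filter, held 10 reads in Ly6C+ and 13 in Ly6C-.

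The 3 tested genes of chromosome structure did not pass. Mki67, which encodes the Ki-67 antigen, was at 10.98, 18.8 and 33.2 in Ly6C+ against 22.6, 28.9 and 31.5 in the Ly6C- libraries, and Ly6C+ replicate 3 was the highest of all 6 libraries. The difference was -0.50 (SE 0.37, limma adjusted p = 0.42), with a log2 SD of 0.76 in Ly6C+ and 0.24 in Ly6C-. Top2a, encoding the topoisomerase that untangles sister chromatids, was at 39.0, 60.9 and 103 against 95.5, 99.5 and 86.5. Again Ly6C+ replicate 3 was the highest library, and the adjusted p of limma was 0.244 with it and 0.0323 without it. Smc4, of condensin, was at 9.76, 12.03 and 8.499 against 0, 6.81 and 18.4. Its log2 difference was 1.05 (SE 0.86, limma adjusted p = 0.482; means 10.1 ± 1.79 and 8.39 ± 9.28) and -0.16 without Ly6C- replicate 1, in which no read was counted. Smc2, its condensin partner, and Hmgb2, a chromatin protein gene, were below the filter with 5 and 1 reads in Ly6C+ and 1 and 3 in Ly6C-.

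Of the tubulins, Tubb5 was at 1176, 1303 and 1230.1 in Ly6C+ against 1802, 1812 and 1737 in the Ly6C- libraries, a narrow spread with no overlap. It was 1.44-fold higher in Ly6C- (means 1236 ± 63.6 and 1784 ± 40.7, log2 -0.53, SE 0.15, limma adjusted p = 0.0291), and the adjusted p was 0.0949, 0.0679 and 0.0627 without Ly6C+ replicates 1, 2 and 3, and 0.0704 and 0.115 without Ly6C- replicates 1 and 2. Tuba1b was at 1074, 1601 and 2023 against 1801, 1894 and 2597 (means 1566 ± 475 and 2097 ± 435, log2 -0.45, SE 0.24, limma adjusted p = 0.253), with 1 Ly6C+ library inside the Ly6C- range. Both belong to a family of near-identical genes, and how shared reads were counted was not given in the sources used here. For 10 mitotic members, including Plk1, Cdc20, Kif20a and Tacc3 among the calls, an exon overlaps a gene on the other strand, and reads of the pair cannot be told apart without knowing the strand setting.

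Of the genes for DNA replication, Rrm1 passed the test and was lower in Ly6C+. All 19 members were tested: 1 was lower, none was higher, 18 did not pass, and 4 (21.1%) had an unadjusted p under 0.05, against 28.5% of all tested genes. The median difference was -0.49 (range -1.15 to 0.19), and 16 of 19 were negative. For 9 members, Mcm3, Mcm5, Mcm7, Cdt1, Rfc3, Prim1, Fen1, Rrm1 and Ccne1, all Ly6C- values lay above all Ly6C+ values (47.4%, against 16.1% of all tested genes), and for none the reverse (17.1% of all tested genes). The summed level was 612, 925 and 902 in Ly6C+ against 1089, 1194 and 1118 in the Ly6C- libraries, without overlap. The share called, 5.26%, is near the 7.66% of all tested genes called lower. Whether the replication and mitotic genes differed from each other was not tested.

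**Figure D2:**
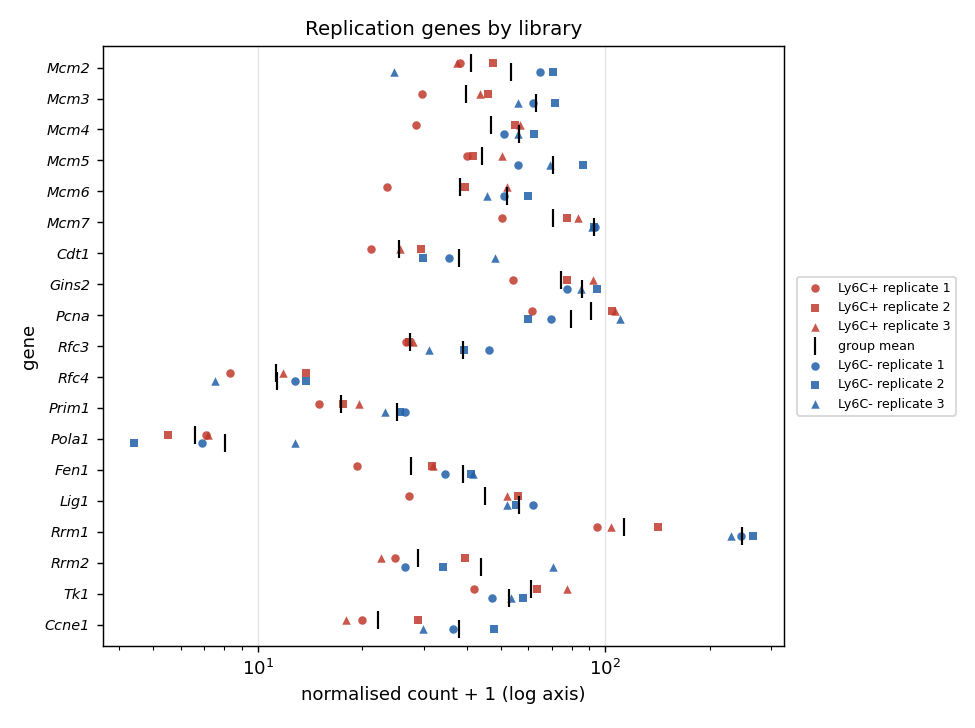
Deposited normalised count plus 1 (log axis) of the 19 replication members in each library, with symbols for the replicates, red for Ly6C+, blue for Ly6C- and black ticks for the group means. Rrm1 shows a clear gap, at 93.3 to 141 against 228 to 265, while Pcna, at 60.4 to 106 against 58.7 to 109, overlaps fully.

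Rrm1 (chr7:102441695-102469771), the regulatory and catalytic large subunit of ribonucleotide reductase, was at 93.3, 141 and 103 in Ly6C+ against 245, 265 and 228 in the Ly6C- libraries. Every Ly6C- library was well above every Ly6C+ library. It was 2.19-fold higher in Ly6C- (means 112 ± 24.999 and 246 ± 18.7, log2 -1.15, SE 0.19, limma adjusted p = 0.00173) and passed in all 20 alternative analyses. Rrm2, the small subunit of the same enzyme, was at 23.8, 38.3 and 21.6 against 25.6, 33.2 and 69.5. A single Ly6C- library, replicate 3, was high, and the groups otherwise overlapped (means 27.9 ± 9.08 and 42.8 ± 23.5, log2 -0.51, SE 0.37, limma adjusted p = 0.407). Tk1, which salvages thymidine, was at 40.9, 62.4 and 76.5 against 46.3, 57.0 and 52.4 (log2 0.16, limma adjusted p = 0.74); after scaling libraries to their own totals this was -0.029. Nucleotide supply thus held 1 gene past the test and 2 that overlapped between the groups.

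All 6 MCM helicase genes were negative and none passed. Their summed level was 204, 301 and 318 in Ly6C+ against 373, 437 and 337 in the Ly6C- libraries. Mcm5 was at 39.0, 40.6 and 49.5 against 55.1, 85.1 and 68.2 (1.61-fold, log2 -0.66, SE 0.23, limma adjusted p = 0.0711). Mcm3 was at 28.7, 45.1 and 42.5 against 61.0, 70.6 and 55.1 (1.61-fold, log2 -0.69, SE 0.24, limma adjusted p = 0.0731). Both were separated between the groups and short of the threshold, passing in 4 and 3 of 20 alternatives. Mcm7 was at 49.4, 76.7 and 82.7 against 92.5, 91.9 and 90.5 (means 69.6 ± 17.7 and 91.6 ± 1.05, log2 -0.43, SE 0.22, limma adjusted p = 0.244); its annotated exons overlap the microRNA genes Mir25 and Mir93. Mcm2 was at 37.2, 46.6 and 36.3 against 64.0, 69.8 and 23.6, so that Ly6C- replicate 3 was the lowest of all 6 libraries. The difference was -0.25 (means 40.0 ± 5.70 and 52.4 ± 25.1, SE 0.36, limma adjusted p = 0.726), with an adjusted p of 0.0491 without that library. Mcm6 and Mcm4 overlapped between the groups and gave -0.51 and -0.34 (limma adjusted p of 0.291 and 0.488).

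Upstream and at the fork no gene passed. Ccne1, the G1/S cyclin, was at 18.9, 27.8 and 17.0 against 35.4, 46.8 and 28.8 (1.74-fold, log2 -0.78, SE 0.28, limma adjusted p = 0.0921). Cdt1, the licensing factor, was at 20.1, 28.6 and 24.7 against 34.4, 28.9 and 47.2 (log2 -0.56, limma adjusted p = 0.201). Both were higher in every Ly6C- library, for Cdt1 by a margin of less than 1 read at its nearest pair. Gins2, a subunit of the active helicase, overlapped (log2 -0.23, limma adjusted p = 0.573). At the fork, the primase gene Prim1, the clamp-loader gene Rfc3 and the flap nuclease gene Fen1 gave -0.54, -0.49 and -0.53, each without overlap (limma adjusted p of 0.204, 0.208 and 0.227). Pcna, the sliding clamp and a common S-phase marker, was at 60.4, 104 and 106 against 68.9, 58.7 and 109. It overlapped fully and was not lower in Ly6C+ on average (means 89.99 ± 25.7 and 78.8 ± 26.5, log2 0.19, SE 0.28, limma adjusted p = 0.722). Lig1, the ligase of Okazaki fragments, read 26.2, 54.9 and 51.0 against 61.0, 54.4 and 51.1 (log2 -0.39, limma adjusted p = 0.408). Pola1, the catalytic subunit of polymerase alpha, was at 6.10, 4.51 and 6.18 against 5.91, 3.40 and 11.8, with a log2 SD of 0.77 in Ly6C- (log2 difference -0.16, SE 0.49, limma adjusted p = 0.877). Rfc4, another clamp-loader subunit, read 7.32, 12.8 and 10.8 against 11.8, 12.8 and 6.56; its difference of 0.01 turned to -0.0497 under quantile normalisation and -0.17 after scaling to library totals. Of the 19 members, 6 overlap a gene on the other strand, none of these past the test.

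**Figure D3:**
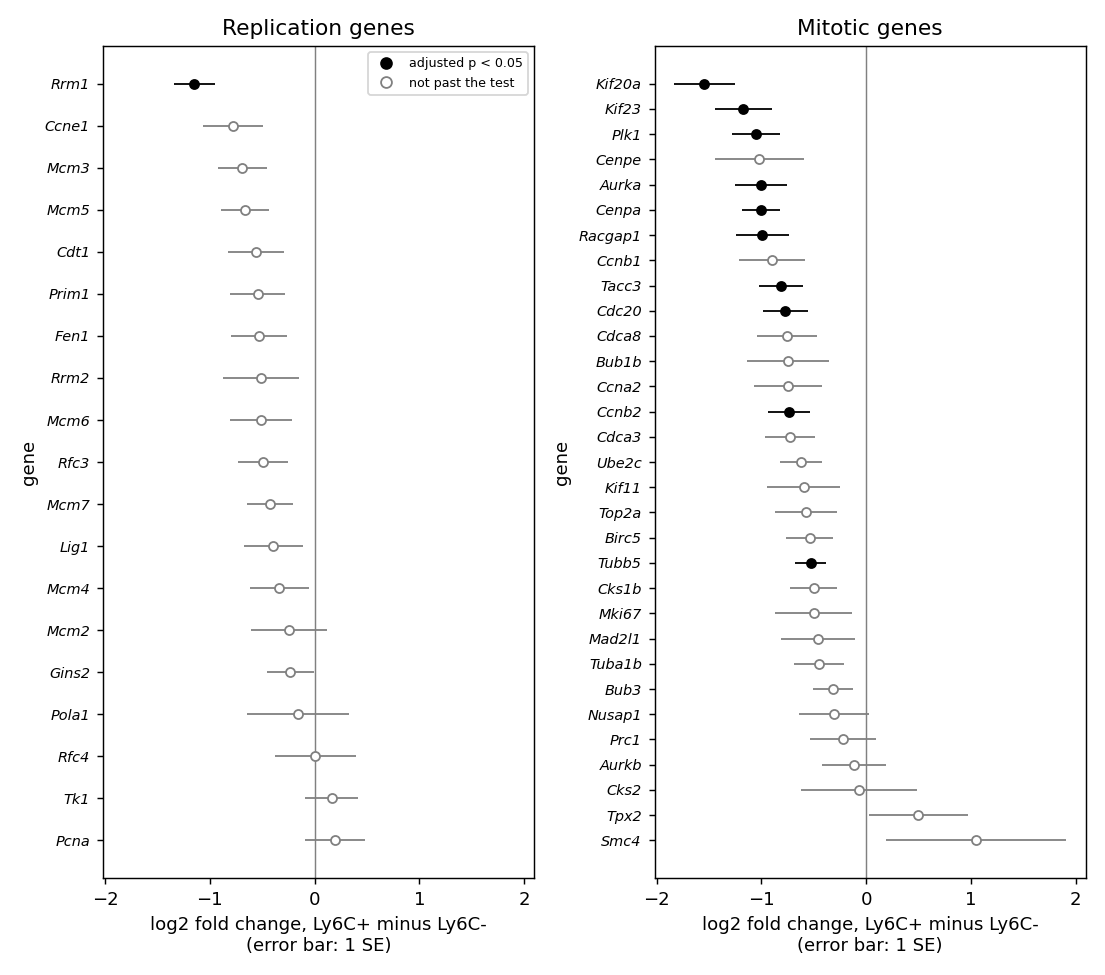
Log2 difference, Ly6C+ minus Ly6C-, of each tested replication and mitotic member (points, bars of 1 SE; filled points passed limma's adjusted p under 0.05). Most points lie left of 0, with medians of -0.49 for replication and -0.62 for mitosis, and Rrm1 at -1.15 and Kif20a at -1.54 lie farthest left in their panels.

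Spread between libraries was described without a test. For replication genes the median SD of log2 values was 0.37 in Ly6C+ and 0.195 in Ly6C-; for mitotic genes it was 0.32 and 0.27, and for all tested genes 0.28 and 0.30. Ly6C+ replicate 1 was the lowest of its group for 15 of 19 replication genes (78.9%) and 22 of 31 mitotic genes (71.0%), a place it took for 35.7% of all tested genes. It was the highest for none of the replication genes and 1 mitotic gene, against 32.1% of all genes. Ly6C+ replicate 3 was the highest for 11 replication and 19 mitotic genes (61.3%), against 36.0% of all genes. In Ly6C-, replicate 2 was highest for 10 replication genes (52.6%, against 25.7% of all genes) and replicate 3 lowest for 10 of them (52.6%, against 34.1%). For mitotic genes, Ly6C- replicate 1 was lowest for 18 (58.1%, against 37.9%), and replicates 2 and 3 were highest for 13 (41.9%, against 25.7%) and 15 (48.4%, against 42.3%). The median deviation of replication genes from the mean over all libraries was -0.52, -0.03 and -0.02 in Ly6C+ replicates 1 to 3 and 0.22, 0.30 and 0.16 in Ly6C-. For mitotic genes it was -0.60, -0.27 and -0.11 against 0.23, 0.38 and 0.46, with all genes within -0.01 to 0.04. In both lists all 3 Ly6C+ medians were below 0, and replicate 1 lay farthest below. Those of Ly6C+ replicates 2 and 3 were close to 0 for replication genes and lower for mitotic genes. In Ly6C+ replicate 3, 11 of 31 mitotic genes were above their mean.

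**Figure D4:**
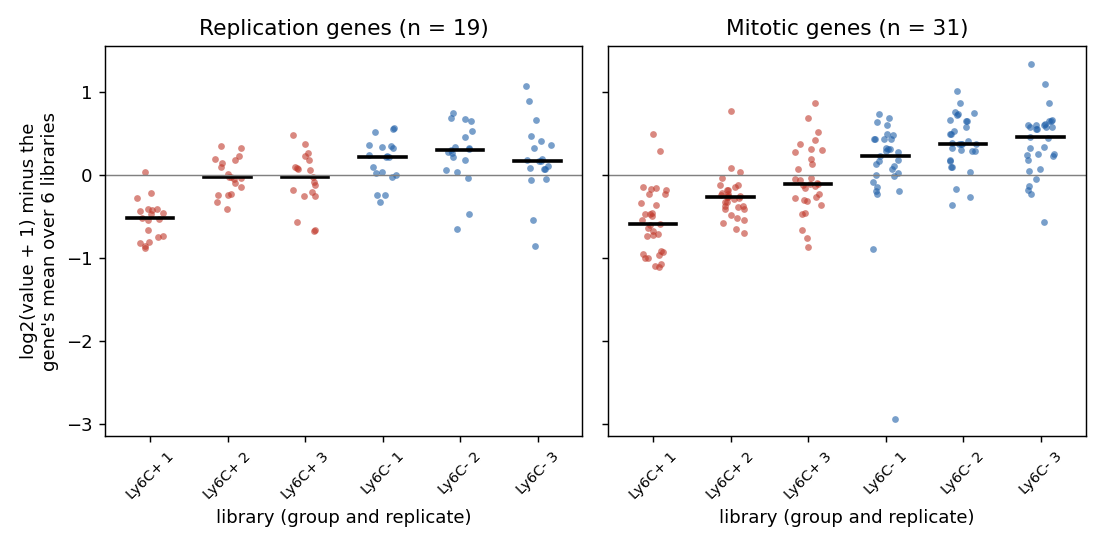
Deviation of each member's log2(value + 1) from its mean over the 6 libraries, by library, for replication and mitotic genes (points for genes, bars for medians). Ly6C+ replicate 1 has the lowest medians, -0.52 and -0.60, and the Ly6C- medians are 0.16 to 0.46.

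Without Ly6C+ replicate 1 the median difference was -0.21 for replication and -0.50 for mitotic genes. Leaving out any other library gave -0.42 to -0.55 and -0.63 to -0.73. Cenpa, Kif20a and Rrm1 passed with any 1 library left out. Over all genes, 461 were lower in Ly6C+ without Ly6C- replicate 2 and 521 to 735 without any other library, against 739. After scaling libraries to their own totals, the median of all genes moved to -0.19, and 1211 genes (12.6%) were lower and 725 higher in Ly6C+, against 739 and 908 on the deposited scale. There the medians were -0.68 for replication and -0.81 for mitosis, with 4 replication and 15 mitotic genes lower.

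Of the markers of other cells, the summed epithelial and mural levels were apart between the groups, while the endothelial and immune sums overlapped. The summed level of 12 epithelial genes was 15.9, 58.6 and 60.3 in Ly6C+ against 394, 229.7 and 121 in the Ly6C- libraries. Of 5 tested, 2 were lower in Ly6C+: Krt14, at 0.610 to 0.773 against 25.6 to 40.8, and Krt19, at 3.01 to 4.88 against 24.7 to 57.1. Epcam, whose product the sort selected against, and Cdh1 were at or near 0 in all libraries, at most 2.95 and 1.97. Krt5, below the filter, was at 0 in every Ly6C+ library and at 3.94, 15.3 and 10.5 in Ly6C-. Within Ly6C-, Krt14 was at 25.6, 40.8 and 26.2 and Krt19 at 57.1, 24.7 and 53.8. Krt8 and Krt18, which did not pass, were at 81.7, 34.0 and 6.56 and at 183, 97.8 and 21.0 there, against Ly6C+ ranges of 3.05 to 10.0 and 3.66 to 27.8.

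The 8 mural genes, markers of pericytes and smooth muscle, summed to 190.3, 209.7 and 246 in Ly6C+ against 1109, 842 and 604 in the Ly6C- libraries. Of 7 tested, 5 were lower in Ly6C+: Myh11 at 0 to 0.610 against 20.7 to 28.9, Des at 14.7 to 30.8 against 76.0 to 684, Cspg4 at 25.01 to 28.6 against 324 to 399.9, Mcam and Notch3. Kcnj8 was 3.92-fold higher in Ly6C+, Abcc9 did not pass at 15.2 to 51.0 against 5.91 to 14.5, and Rgs5 was at most 5.24. The 5 endothelial genes summed to 21.0 to 41.5 against 22.3 to 128, with 2 lower and 1 higher of 3 tested, and Pecam1 was at most 4.25. The 12 immune genes summed to 1197, 379 and 284 against 477, 117 and 76.0, with 2 of 10 tested higher in Ly6C+. The 2 were Lyz2, at 27.0 to 264 against 1.70 to 25.6, and Cd3e, at 88.7 to 165 against 10.5 to 19.7. Of the 10 tested, 9 differences were positive and 1 negative, and 8 genes did not pass. Cd68, Csf1r, Fcgr3 and C1qa were among those 8, with log2 differences of 0.246, 0.18, 0.304 and 0.579. The negative gene was Cd74 (means 52.97 in Ly6C+ and 127.2 in Ly6C-, log2 -0.308). Its Ly6C- mean was raised by replicate 1, at 314.9. S100a8 and S100a9, neutrophil genes, did not pass (limma adjusted p of 0.191 and 0.0672). They were at 179 and 478 in Ly6C+ replicate 1, the library lowest for most members, and at most 4.51 elsewhere. The part of these cells in the differences of replication and mitotic genes was not tested.

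Other genes of the pathway, 44 in the table, were described from a separate list of cell cycle control genes. Of 40 tested, 3 were lower and 1 was higher in Ly6C+, 36 did not pass, 13 (32.5%) had an unadjusted p under 0.05, and the median difference was -0.20. The share lower in Ly6C+, 7.5%, is near the 7.66% of all tested genes, of which 9.41% were higher. The share under that unadjusted p lies above the 28.5% of all tested genes. Of the 40 differences 62.5% were negative, against 50.1% of all tested genes. Cdkn2b, which encodes the CDK4 and CDK6 inhibitor p15, was at 12.8, 7.52 and 10.0 in Ly6C+ against 46.3, 76.6 and 108 in the Ly6C- libraries. This inhibitor was 7.58-fold higher in Ly6C- (means 10.1 ± 2.65 and 76.8 ± 30.6, log2 -2.75, SE 0.33, limma adjusted p = 0.000179), the group with the higher mitotic transcripts. Cdkn1c, which encodes the inhibitor p57, went the other way, at 85.4, 47.4 and 64.9 against 18.7, 8.51 and 21.0. It was 4.10-fold higher in Ly6C+ (means 65.9 ± 19.0 and 16.1 ± 6.64, log2 2.02, SE 0.35, limma adjusted p = 0.00206). Ccnd2, a D-type cyclin of G1, was at 86.6, 69.9 and 77.3 against 144, 144 and 198 and 2.08-fold higher in Ly6C- (means 77.9 ± 8.37 and 162 ± 31.3, log2 -1.03, SE 0.20, limma adjusted p = 0.00374). None of these 3 genes overlapped between the groups, and each passed in all 20 alternatives. Cdc25c, a phosphatase that activates the mitotic kinase, was at 4.88, 6.01 and 5.41 against 11.8, 19.6 and 11.8 (2.65-fold, log2 -1.22, SE 0.37, limma adjusted p = 0.0429). It lost the call without any 1 of the Ly6C+ replicates (0.0885 to 0.119), without Ly6C- replicate 1 (0.0501) or without Ly6C- replicate 2 (0.201).

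**Figure D5:**
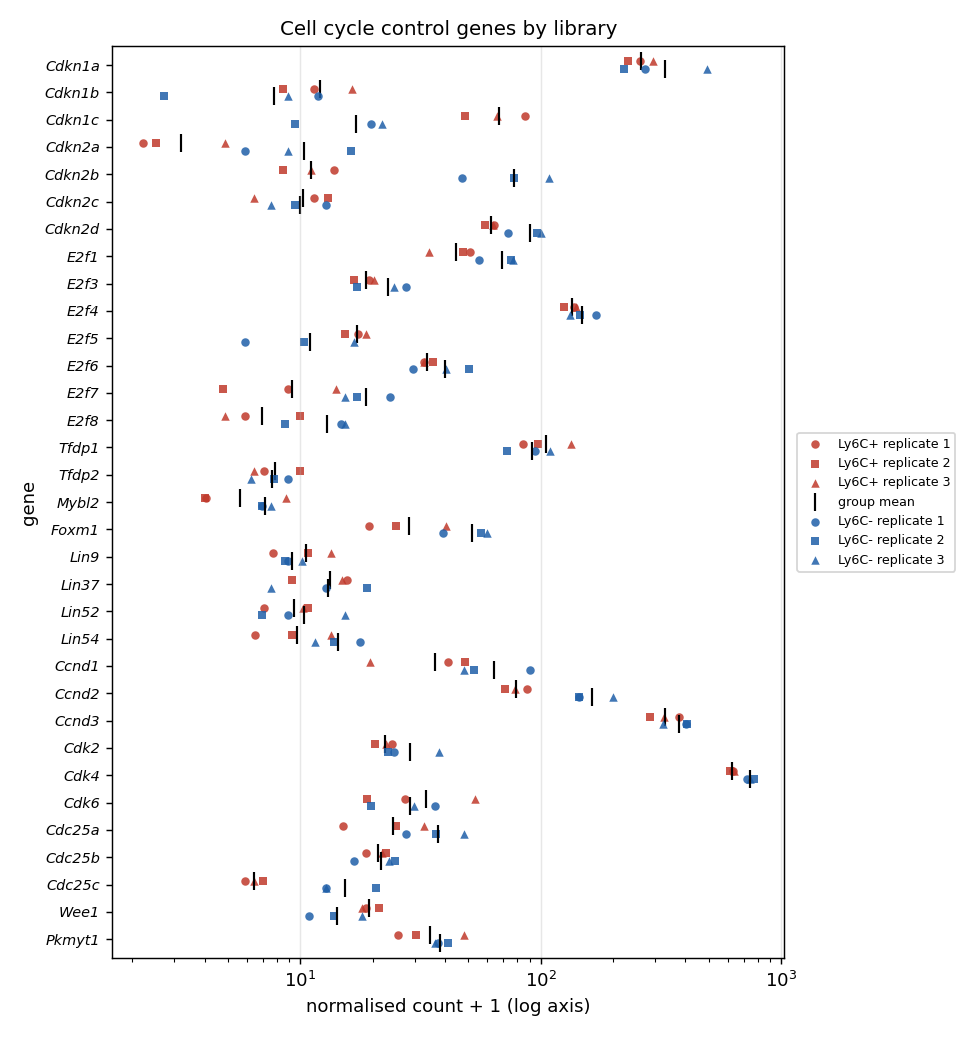
Deposited normalised count plus 1 (log axis) of the tested CDK inhibitor, E2F, MuvB, cyclin, CDK and CDK-phosphorylation genes in each library, with symbols for the replicates, red for Ly6C+, blue for Ly6C- and black ticks for the group means. Cdkn2b (7.52 to 12.8 against 46.3 to 108), Ccnd2 and Cdc25c are higher in Ly6C-, and Cdkn1c (47.4 to 85.4 against 8.51 to 21.0) is higher in Ly6C+.

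The transcription factors of both programmes did not pass, and Rb1, E2f2, Rbbp4 and Btg1 were below the filter; Rbbp4, a MuvB subunit, had 11 reads in Ly6C+ and 0 in Ly6C-. Foxm1, the factor of late mitotic genes, was at 18.3, 24.1 and 39.4 against 38.4, 55.3 and 59.0, with 1 Ly6C+ library just above the lowest Ly6C- library (log2 -0.92, SE 0.30, limma adjusted p = 0.0627). Mybl2, encoding B-MYB, was at 3.05, 3.01 and 7.73 against 5.91, 5.95 and 6.56 (limma adjusted p = 0.604). E2f1 was at 50.01, 46.6 and 33.2 against 54.1, 74.0 and 76.0 (log2 -0.65, limma adjusted p = 0.0927), and none of the 9 tested E2F and DP genes passed. Cdkn1a, which encodes p21, was at 259, 230.01 and 292 against 269.7, 222 and 490.3, overlapping between the groups (limma adjusted p = 0.597). Rbl2, encoding the pocket protein p130, and Btg2, an antiproliferative gene, gave 0.79 and 0.70 (limma adjusted p of 0.0721 and 0.065), both positive. The CDK inhibitor genes Cdkn2a and Cdkn2d gave -1.66 and -0.52 (limma adjusted p of 0.0679 and 0.106), both negative. Of the 7 tested CDK inhibitor genes, 4 were negative and 3 positive. Cdk4, the partner of D cyclins, stood at 612 to 637 in Ly6C+ and 720.4 to 768 in Ly6C-, apart but with a log2 difference of -0.25 (limma adjusted p = 0.302).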

How the data were processed

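RNA of 3 Ly6C+ and 3 Ly6C- libraries was read from 1 deposited table of 12235 genes. Its values are a signal, normalised counts that the authors made with 1 scaling factor for each library. Base calls, alignment to mm10 and counting used bcl2fastq, STAR 2.4.2a and HTSeq, as listed in the submitters' processing notes; the factor tool, annotation, strand setting, molecular tags and gene filter are not given in the sources used here. All deposited values (100%) were whole multiples of a step per library within 0.001, so whole reads were recovered (step 0.610 to 1.31) for edgeR and DESeq2 as alternatives. Counting error is larger for low genes: tested members held 14 to 6509 reads per group.

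Values were taken to log2 after adding 1. The 9646 genes with a mean of at least 5 were tested with limma 3.58.1 (R 4.3.3; mean-variance trend, no block) and Benjamini-Hochberg adjusted over all of them; checked on simulated data. A pseudocount understates changes of low genes. Alternatives were other pseudocounts, filters and scalings, no trend, a replicate block, leaving out each library, edgeR 4.0.16 and DESeq2 1.42.0, and, added after seeing the data, thinning to 1176909 reads. Motifs came from RefSeq promoters, coordinates and overlaps from GENCODE M21.

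Members, lists and the rule for full statistics were chosen with earlier results of these data known. The rule takes members past the test in order of p, the 3 with the highest mean and the 3 with the largest SD per list, and control genes past the test; other members are given by value or range. Erythroid markers were not analysed here.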

Additional observations from a re-analysis of the deposited data

How the results depend on the processing

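Scaled to library totals, 1211 genes, 4 replication genes and 7 of 8 called control genes were lower in Ly6C+. Without the mean-variance trend 5 mitotic genes and 610 of all tested genes were lower. With each library left out in turn, 608 to 1001 genes were higher and 461 to 735 lower, with 1 to 2 replication, 3 to 11 mitotic and 3 to 7 called control genes; medians were -0.55 to -0.21 for replication, -0.73 to -0.50 for mitosis and -0.01 to 0.02 for all genes. Mitotic counts in every other alternative were 8 to 15, the lowest of them with libraries thinned to equal reads.

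The replicate numbers did not meet the rule for paired samples (r of 0.129, 0.0518 and 0.167), although every library correlated best with its own number, a hint from the data and not from the design. With the replicate block 4 replication genes, 14 mitotic genes and 7 control genes were called. Over all genes the block gave 970 lower and 1118 higher in Ly6C+, against 739 and 908 without it. With edgeR and the block 4 replication and 8 control genes were called, with 1001 lower and 1112 higher over all genes.

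Signs turned only for genes that did not pass the main test. Rfc4 was -0.0497 after quantile normalisation, -0.17 on library totals, -0.068 and -0.0663 with edgeR's TMM and RLE factors, -0.0483 with edgeR's replicate block and -0.0513 with DESeq2. Cks2 was 0.0524 and 0.0507 with edgeR's TMM and RLE factors and 0.0435 with DESeq2. Tk1 was -0.0288 on library totals, and after thinning Pola1 was 0.19, Aurkb 0.056 and Nusap1 0.14. Leaving out a library gave ranges of -0.73 to 0.029 for Mcm2, -0.26 to 0.21 for Rfc4, -0.52 to 0.25 for Pola1, -0.0332 to 0.41 for Tk1, -0.26 to 0.28 for Cks2, -0.33 to 0.093 for Aurkb, -0.39 to 0.095 for Prc1 and -0.16 to 1.98 for Smc4. Over 54 genes and 20 alternatives, 966 of 1066 values kept sign and side of the threshold. Of these genes, 39 did not pass the main test and had no call to lose. Among the remaining values, 40 lost the call of a gene past the main test, 35 gained a call and 25 changed sign. The causes were not tested. Depth limits genes of a few reads, and 3 libraries per group limit every test.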
